A study of Mus musculus with 6 samples.

Results

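The control transcriptome of the Mesp1-lineage mesoderm of the mouse embryo at embryonic day (E) 7.5 was described from 3 RNA libraries, control replicates 1, 2 and 3, of the 6 libraries of the series. The members were taken from the labels alone, as the libraries titled as wild type. Each came from embryos with the genotype Mesp1-Cre/+;R26-tdTomato/+, in which Cre driven from the Mesp1 locus switches on the red reporter tdTomato at R26, and each came from a different litter (1, 2 or 3). Per the labels' protocols, the embryos of a litter were pooled and dissociated, and 1000 cells per library were sorted straight into lysis buffer. The file header names the control libraries as sorted for tdTomato. All 3 controls carry the Cre and the reporter, the number of embryos per pool is not given in the sources used here, and each litter is represented by 1 library.

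Mesp1 is switched on for a short time as cells leave the primitive streak, the furrow through which epiblast cells ingress to form mesoderm. A Cre reporter stays on after Mesp1 is off, so the sorted population holds descendants as well as nascent cells. At this stage these descendants are known to include extraembryonic mesoderm, cardiac and cranial mesoderm, and the precursors of endothelium and blood. BMP, FGF, WNT and Nodal ligands pattern this tissue, and Id proteins, T-box, GATA and HAND factors are among the transcription factors known for it.

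Levels are given as CPM, the counts of a gene over the library total in units of 1000000, with the total corrected by TMM, a trimmed mean of the ratios between libraries. Levels of different genes are compared only as CPM per kilobase of the gene's longest transcript. A gene is called expressed at 1 CPM or more in each of the 3 libraries. The libraries held 5481190, 10435790 and 7859087 counts, so a gene with a count of 0 may have had up to 3 counts, or 0.555, 0.288 and 0.380 CPM. Of 24975 genes, 11529 (46.2%) were expressed, 2054 reached a mean of 100 CPM and 7304 had no count in any control library. The 100 most abundant genes took 22.8%, 23.6% and 23.4% of the counts. As each litter gave 1 control library, no test between the libraries was possible, and a difference between litters cannot be told apart from one between library preparations. In these bulk samples fewer cells of a type and less RNA per cell also cannot be told apart.

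The 7 markers of Mesp1-lineage mesoderm were all expressed. Hand1, a basic helix-loop-helix (bHLH) factor of lateral plate, cardiac and extraembryonic mesoderm, measured 118, 129.6 and 151 CPM in replicates 1, 2 and 3. Bmp4, a ligand of the extraembryonic and lateral mesoderm, measured 107, 116 and 154 CPM, and both genes were lowest in replicate 1 and highest in replicate 3. Kdr, the VEGF receptor of the haemangioblast, measured 19.3, 29.9 and 28.9 CPM, and Foxf1, a forkhead factor of lateral plate mesoderm, measured 16.7, 16.03 and 18.2 CPM. The levels of Foxf1 lay within 1.14-fold of each other.

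The streak markers were less even. Mesp1 itself measured 25.2, 15.9 and 8.101 CPM, T, the T-box factor of the streak and notochord, 43.5, 16.3 and 7.97 CPM, and Tbx6, a T-box factor of paraxial mesoderm, 14.1, 5.38 and 3.04 CPM. All 3 genes were highest in replicate 1 and lowest in replicate 3. The ratio of the highest to the lowest library, here and below called the ratio, was 3.11 for Mesp1, 5.46 for T and 4.63 for Tbx6. Per kilobase, Hand1 (69.8 ± 8.73 CPM per kilobase, mean ± SD, n = 3) and Bmp4 (61.0 ± 12.2) lay above the other 5 markers, the next of which was Mesp1 (12.9 ± 6.71). All 3 controls carry Cre at the Mesp1 locus, and how this bears on the measured level of Mesp1 was not tested.

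The highest levels of all belonged to housekeeping genes and to families of near-identical copies. The 12 highest nuclear genes per kilobase were Ppia, Ubb, 6 histone H2A genes, Mif, Rpl41, Eno1b and H2afz. Ppia, a peptidyl-prolyl isomerase, measured 6059.8, 6743 and 6374 CPM, and Ubb, a polyubiquitin gene, 6964, 8976 and 8453 CPM. Each of the 6 H2A transcripts matched 10 to 13 other annotated genes over at least 50% of its length at 95% identity or more. Eno1b matched Eno1 over 92.2% of its transcript, and the gene named Gm17494 had nearly the same counts as Ppia (6306, 6813 and 6573 CPM). The levels of such copies are uncertain, since the sources used here do not say how reads that match several places were counted.

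Of 745 transcription factor genes in the lists, 364 (48.9%) were expressed, near the 46.2% of all genes. The Id genes, which code for helix-loop-helix proteins that lack a DNA-binding region and are known BMP targets, stood at or near the top. Id3 measured 410.5, 555 and 522 CPM, Id2 140.3, 195 and 204 CPM and Id1 61.7, 85.2 and 75.2 CPM, and all 3 were lowest in replicate 1. Id3 led with 388 ± 59.2 CPM per kilobase (mean ± SD, n = 3), and its range did not overlap that of the second, Hmga1 (179 ± 37.1). Hmga1 codes for an architectural chromatin protein, and its transcript matched Hmga1b over 79.8% of its length.

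Foxh1, the forkhead partner of SMAD proteins in Nodal signalling, was the fourth, with 186, 173 and 151 CPM. Another gap followed it, since its range did not overlap that of Ctnnb1, the effector of WNT signalling (278, 309 and 335 CPM). From Ctnnb1 down to the fifteenth gene every neighbour overlapped the next, so the order of neighbours there is within the spread of the libraries. The genes below Ctnnb1 were Id1, Trp53, Atf4, Hand1, E2f5, Etv2, Tfdp1, E2f4, Cited1 and Xbp1. Genes further apart did not all overlap. The range of Ctnnb1 (76.7 to 92.4 CPM per kilobase) lay above that of E2f5 (60.1 to 74.5). Hand1 (69.8 ± 8.73 CPM per kilobase) and Etv2 (59.2 ± 11.8), the ETS factor that specifies endothelium and blood, are known for restricted mesodermal lineages, and the others are widely expressed or less restricted.

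**Figure D1:**
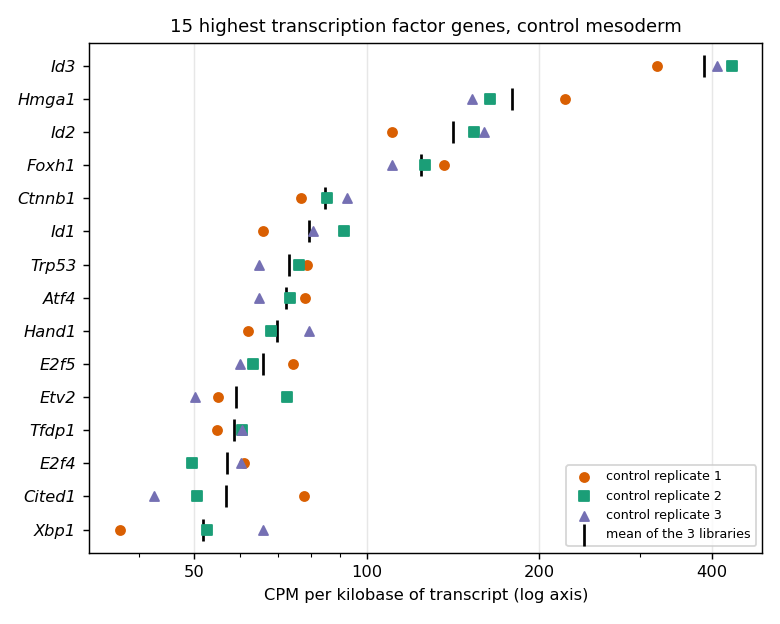
CPM per kilobase of transcript (x axis, log scale) of the 15 transcription factor genes with the highest mean, 1 row per gene; coloured points are the 3 control libraries and the black bar is their mean. Id3 stands clear of the rest at a mean of 388, and the first 4 genes stay above all others. The points of replicate 1 (orange) lie lowest for Id3, Id2, Ctnnb1, Id1, Hand1, Tfdp1 and Xbp1. They lie highest for Hmga1, Foxh1, Trp53, Atf4, E2f5, E2f4 and Cited1.

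The ranks varied with the library. In all, 10 of the 15 genes were among the first 15 in every library. Xbp1, a factor of the unfolded protein response, ranked 27, 13 and 8 in replicates 1, 2 and 3, with 78.9, 112 and 140.2 CPM. Cited1, a transcriptional co-factor, ranked 7, 15 and 18, with 84.6, 55.01 and 46.5 CPM. The most even factors of at least 20 CPM were Hbp1, Hes6, Tcf12, Usf1 and Mlx. Hbp1 measured 95.4, 97.4 and 93.3 CPM, a ratio of 1.04, and the largest ratio among these 5 was 1.08, for Mlx.

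The share of genes expressed, 46.2% over all genes, differed between factor families. It lay near 46.2% for SOX and HMG (53.8%), bHLH (48.5%), T-box (46.7%) and homeobox genes other than Hox (38.8%), so nothing is read from these counts. Of the GATA genes 7 of 8 were expressed, of the SMAD, STAT, TEAD and partner genes 26 of 33, of the bZIP genes 27 of 41, of the ETS genes 15 of 26 and of the SOX and HMG genes 14 of 26. Among bHLH genes it was 47 of 97, among T-box genes 7 of 15, among homeobox genes other than Hox 50 of 129, among nuclear receptors 18 of 48 and among forkhead genes 16 of 43. None of the 9 paired-box genes, which are known for neural, renal and somitic tissues, was expressed, and 2 of 16 POU genes were. Among GATA genes, Gata1, a factor of red blood cells, measured 45.4, 28.99 and 20.4 CPM and Gata6, of cardiac and endodermal tissue, 23.7, 18.7 and 25.7 CPM. Gata5, of cardiac mesoderm, measured 5.18, 12.9 and 16.96 CPM. Gata1 and Gata5 ran in opposite directions over the libraries, Gata1 highest and Gata5 lowest in replicate 1.

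Hox genes, which give cells their position along the body axis and open in order along their clusters, were expressed mainly from the 3′ ends. Of 39 Hox genes 17 (43.6%) were expressed, near the 46.2% of all genes. In paralogue groups 1 to 3 it was 6 of 8, in groups 4 to 7 6 of 12 and in groups 8 to 13 5 of 19. The leading genes were Hoxb1 with 116, 72.2 and 66.2 CPM and Hoxb2 with 55.9, 58.9 and 68.5 CPM. Hoxb1 was highest in replicate 1 and Hoxb2 in replicate 3. Per kilobase, Hoxb1 (40.6 ± 13.01) and Hoxb2 (37.5 ± 4.03) overlapped. An antisense transcript, Hoxb3os, overlaps 27.3% of the exon bases of Hoxb2 and 52.9% of those of Hoxb3, and no strand setting is given, so the reads of each pair cannot be told apart.

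Among the posterior genes Hoxa10 had the highest level per kilobase, 5.38 ± 2.87, against 0.737 ± 0.219 for its expressed cluster neighbour Hoxa11. Hoxa10 measured 5.55, 16.1 and 19.7 CPM and was lowest in replicate 1, and Hoxa11 measured 1.11, 1.92 and 2.03 CPM. The opposite-strand transcript Hoxa11os overlaps 35.0% of the exon bases of Hoxa11, and Hoxaas3 20.4% of those of Hoxa7, so both levels are uncertain. Other expressed Hox genes were Hoxa2, Hoxa5, Hoxa7, Hoxb3, Hoxb5, Hoxb6, Hoxb7, Hoxc5, Hoxc9, Hoxd1, Hoxd9 and Hoxd10. Hoxb6, of the lateral and posterior mesoderm, measured 8.702, 11.6 and 15.9 CPM and Hoxd1 5.18, 6.72 and 7.47 CPM. Hoxc11, Hoxc12 and Hoxd12 had no count. The summed level of groups 8 to 13 was 16.8, 35.5 and 46.2 CPM in replicates 1, 2 and 3, and replicate 1 was thus lowest for the posterior groups.

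**Figure D2:**
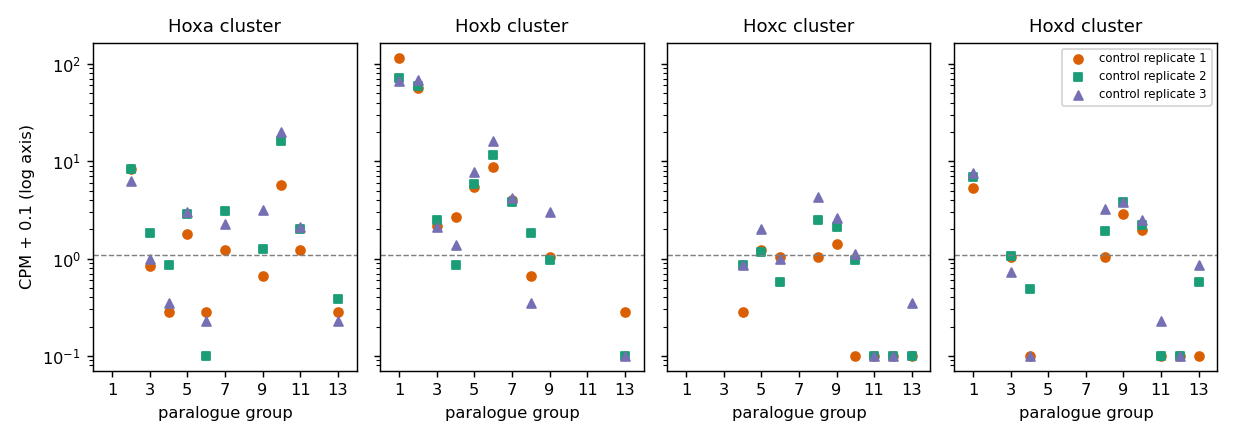
CPM plus 0.1 (y axis, log scale) of 38 Hox genes in the 3 control libraries, by paralogue group (x axis) in each of the 4 clusters; the dashed line marks the 1 CPM of an expressed gene. The highest points are Hoxb1 and Hoxb2, and Hoxa10 rises above its neighbours with replicate 1 lowest.

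Of 195 ligand genes 74 (37.9%) were expressed, against 46.2% of all genes. Mdk, which codes for the heparin-binding growth factor midkine, led with 587, 616 and 639.7 CPM, or 583 ± 24.99 CPM per kilobase. Its range did not overlap that of the second ligand. Fgf15, an FGF ligand, followed with 135, 96.4 and 122 CPM and Bmp4 with 61.0 ± 12.2 CPM per kilobase, and these 2 overlapped. Below them came Cyr61, a matricellular protein (44.8, 79.2 and 98.3 CPM), and Apela, a peptide ligand of the apelin receptor (35.2, 28.6 and 42.02 CPM). Cyr61 was lowest in replicate 1 with a ratio of 2.19, whereas Apela lay within 1.47-fold.

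The range of Apela (29.34 to 43.1 CPM per kilobase) lay just above that of the next ligand, Efna1 (24.6 to 29.32). The replicate 1 values of Rspo3 and Gal, which ranked below Efna1 by their means, lay within the range of Apela. Among the remaining 7 of the 12 highest ligands each overlapped the next. They were Efna1, a membrane-bound ephrin (40.2, 45.7 and 47.8 CPM), Igf2, an imprinted growth factor (118, 124 and 129.7 CPM), Rspo3, an enhancer of WNT signalling (92.2, 62.6 and 65.2 CPM), Gal, Fgf3, Vegfb and Gdf1. Gal, which codes for the peptide galanin, measured 26.5, 12.2 and 11.4 CPM and was highest in replicate 1. Fgf3 measured 50.9, 31.5 and 42.8 CPM and Vegfb 18.7, 17.6 and 18.99 CPM. Gdf1, a TGF-beta family ligand that acts with Nodal, measured 18.3, 19.2 and 17.7 CPM, but its transcript lies wholly within that of Cers1, so the reads of both cannot be told apart. All 12 ligands were among the first 12 in every library. The levels of Igf2 and Apela are uncertain too, since Gm49394 and Gm45886 overlap 62.8% and 29.6% of their exon bases on the same strand, and that of Fgf15 because the opposite-strand gene Gm26793 overlaps 24.9%.

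By ligand family, 10 of 34 BMP, GDF, Nodal, activin and TGF-beta genes, 7 of 22 FGF genes and 8 of 23 WNT and R-spondin genes were expressed. These shares were 29.4%, 31.8% and 34.8%, against 46.2% of all genes. Nodal had no count in any control library. Among BMP genes, Bmp5 measured 10.7, 23.6 and 25.7 CPM and Bmp7 12.2, 21.6 and 29.1 CPM, both lowest in replicate 1, and Bmp2 12.2, 12.1 and 19.2 CPM. The placental growth factor gene Pgf measured 2.96, 10.8 and 14.9 CPM, a ratio of 5.04, and Ptn, which codes for pleiotrophin, 6.48, 14.7 and 19.4 CPM. Wnt4 measured 3.52, 2.21 and 9.999 CPM and was highest in replicate 3, with a ratio of 4.53, and Wnt11 measured 2.96, 6.14 and 7.34 CPM.

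Secreted antagonists and modulators, which bind ligands or aid their receptors, were expressed from 20 of 34 genes (58.8%, against 46.2% of all genes). Cfc1, the Nodal co-receptor Cryptic, measured 64.1, 67.5 and 76.1 CPM and Cer1, which codes for the antagonist Cerberus, 53.7, 66.4 and 67.1 CPM. The follistatin-related genes Fstl1 and Fst measured 59.4, 83.05 and 101 CPM and 49.4, 56.3 and 42.3 CPM, and the WNT antagonist Dkk1 29.1, 30.8 and 28.2 CPM. Cfc1 (66.5 ± 5.95 CPM per kilobase), Cer1 (35.9 ± 4.34) and the pair Fstl1 (21.4 ± 5.53) and Fst (17.4 ± 2.47) formed 3 levels that did not overlap. Opposite-strand genes overlap 27.8% of the exon bases of Cfc1 (Prss40) and 46.7% of those of Bmp5 (Gm26903).

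Of 164 receptor genes 96 (58.5%) were expressed, against 46.2% of all genes. The mean levels of the 12 highest receptors lay below those of the first 5 ligands, from 27.3 ± 7.71 CPM per kilobase for Ramp2 to 8.77 ± 1.47 for Il11ra1, the twelfth. The ranges of the 2 highest, Ramp2 and Bambi, overlapped those of Cyr61 and Apela. Ramp2, an accessory protein of the adrenomedullin receptor, measured 21.8, 38.9 and 35.8 CPM and Bambi, a decoy receptor of BMP signalling, 108, 142 and 165 CPM. The ranges of the 2 overlapped. That of Bambi did not overlap the range of the third, F2r, whereas the value of Ramp2 in replicate 1 lay within it. The level of Ramp2 is uncertain, because Vps25 overlaps 33.4% of its exon bases on the same strand, and that of Il11ra1 because Gm13305 matches 98.9% of its transcript.

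F2r, a thrombin receptor, measured 67.4, 65.5 and 58.7 CPM, Ryk, a WNT co-receptor, 46.7, 46.9 and 57.6 CPM, and Nrp1, a co-receptor of VEGF and semaphorins, 32.8, 57.5 and 70.5 CPM. Nrp1 was lowest in replicate 1, where it ranked 12 against 5 and 4 in the others. The apelin receptor gene Aplnr measured 36.5, 48.1 and 46.2 CPM, so both this receptor and its ligand Apela were expressed. For BMP and activin signalling, the receptors Bmpr1a and Acvr2b measured 62.6, 54.9 and 64.9 CPM and 29.6, 27.7 and 32.1 CPM. Pdgfra, a receptor of mesoderm and mesenchyme, measured 57.4, 56.9 and 68.6 CPM and Pth1r 24.1, 23.8 and 26.7 CPM.

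**Figure D3:**
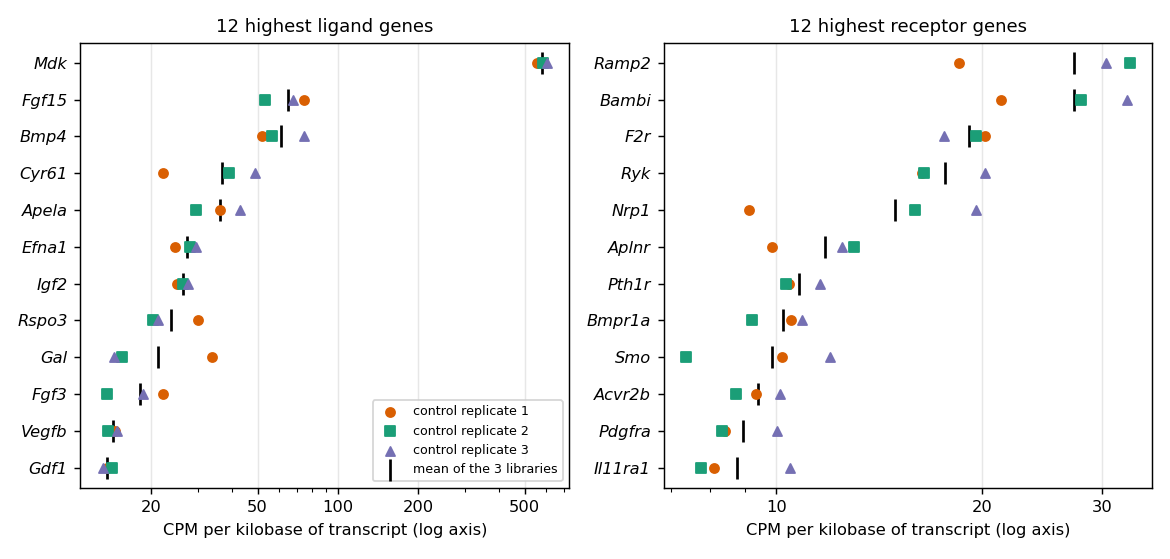
CPM per kilobase of transcript (x axes, log scale) of the 12 ligand genes (left) and 12 receptor genes (right) with the highest mean; coloured points are the 3 control libraries and black bars their means. Mdk stands apart at a mean of 583, and no receptor reaches the level of Bmp4 at 61.0.

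For the Hedgehog pathway, which the series was designed to study, the members below were chosen after their values were seen, apart from Smo. The ligand genes were near or at 0. Shh measured 0, 0 and 0.127 CPM and Ihh 0.185, 0 and 0.253 CPM, which is 1 count and 3 counts over all 3 libraries, and Dhh had no count. The signal transducer Smo measured 38.5, 27.8 and 45.3 CPM and was lowest in replicate 2. The receptor and target Ptch1 measured 2.04, 3.65 and 2.91 CPM, and the co-receptors Gas1, Boc and Cdon measured 9.998, 6.62 and 7.72 CPM, 3.33, 2.496 and 5.06 CPM and 2.22, 2.11 and 3.16 CPM. Of the transcription factors, Gli3 measured 25.7, 29.5 and 34.3 CPM, Gli2 5.37, 3.36 and 6.08 CPM and Gli1, also a target, 2.96, 1.82 and 1.14 CPM. Per kilobase, Gli3 (3.65 ± 0.526) lay above Gli2 (0.744 ± 0.212) and Gli1 (0.487 ± 0.227) in each library.

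Of the lineage lists, that of extraembryonic mesoderm and allantois had the highest median level per kilobase. All 23 genes of this list that are in the table were expressed, against 46.2% of all genes. Their median was 30.2 CPM per kilobase, against 6.31 over all expressed genes. Phlda2, an imprinted growth regulator, measured 1451, 1043 and 1042 CPM, the keratin gene Krt18 390.1, 645 and 819.7 CPM, Pmp22, of the cell membrane, 324, 402 and 546 CPM and Spin2c 296, 309 and 399.97 CPM. Several of these genes are widely expressed, and a list median is a description, not a measure of cell number.

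In the lateral plate and intermediate mesoderm list 17 of 22 genes were expressed (77.3%, against 46.2% of all genes). They were led by Hand1, Bmp4 and the homeobox genes Msx1 (63.5, 84.8 and 85.1 CPM) and Msx2 (98.5, 79.01 and 91.9 CPM). Msx1 and Msx2 are known BMP targets. In the cardiac list 19 of 25 were expressed (76.0%, against the same 46.2%). Myl7, the atrial myosin light chain, measured 68.3, 112 and 111 CPM, Tnni1, a troponin, 33.9, 42.1 and 42.5 CPM and Smarcd3, a chromatin remodeller subunit of the heart field, 37.6, 62.4 and 72.5 CPM. The opposite-strand gene Chpf2 overlaps 48.2% of the exon bases of Smarcd3, so its level is uncertain. Among other cardiac genes, named after their values were seen, Nkx2-5 measured 0.3703, 1.15 and 1.899 CPM, Tbx5 0.3703, 0.672 and 1.52 CPM and Myh6 0.185, 0.864 and 1.27 CPM. None of these 3 was expressed by the 1 CPM rule, whereas Gata4 (7.96, 9.601 and 10.6 CPM) and Isl1 (26.8, 33.2 and 37.1 CPM) were. The contractile genes Tnnt2 and Myl4, given below, were expressed too.

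Of the primitive streak and nascent mesoderm list 20 of 26 genes were expressed (76.9%, against 46.2% of all genes). They were led by Cfc1, Cdx4 (52.03, 67.8 and 51.1 CPM), Pou5f1 (42.4, 20.6 and 17.3 CPM) and Cdx1 (47.2, 19.7 and 16.8 CPM). Cdx1 and Cdx4 code for caudal homeobox factors of the posterior embryo, and Pou5f1 for the pluripotency factor Oct4. Of the paraxial and presomitic mesoderm list 16 of 23 were expressed (69.6%, against the same 46.2%). Aldh1a2, the enzyme of retinoic acid synthesis, led with 191, 178 and 131 CPM, then Hes1 (57.95, 53.3 and 67.5 CPM), Tcf15 (46.1, 35.1 and 32.5 CPM) and Cer1.

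Endothelial and blood genes were among the expressed genes. Of the endothelial and haemangioblast list 20 of 27 were expressed (74.1%, against 46.2% of all genes). They were led by Etv2 (57.6, 76.04 and 52.7 CPM), Egfl7 (71.3, 82.4 and 87.5 CPM) and Lmo2 (63.9, 47.2 and 37.1 CPM). Of the primitive erythroid list 12 of 15 were expressed (80.0%, against the same 46.2%). The embryonic globin Hbb-bh1 led with 266, 341 and 146 CPM, and Hba-x measured 16.7, 30.8 and 11.5 CPM. The embryonic globin Hbb-y was low, with 1.67, 1.25 and 0.506 CPM (named after its value was seen), and Slc4a1, the anion exchanger of mature red cells, had no count. The globins Hba-a1 (30.6, 32.7 and 14.4 CPM) and Hba-a2 (28.5, 31.1 and 14.2 CPM) are near-identical copies that could share reads.

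Markers of some other cell types were mostly absent or low. For the megakaryocyte and macrophage, trophoblast and surface ectoderm lists the expressed shares were 7.14%, 26.3% and 15.4%, against 46.2% of all genes. Of the 14 megakaryocyte and macrophage genes 1 was expressed, the haematopoietic factor Runx1 (11.8, 5.18 and 7.47 CPM), and Gp9, Csf1r, Adgre1, Ptprc, Fcgr1, Aif1 and Cx3cr1 had no count. The trophoblast genes Elf5, Tpbpa and Prl3d1, the neural gene Sox1, the renal gene Pax2 and the node genes Foxj1 and Pkd1l1 also had none. Of the trophoblast and extraembryonic ectoderm list 5 of 19 were expressed, of which Hand1 is a mesoderm gene too, and Cdx2 measured 15.2, 11.4 and 9.37 CPM, Ascl2 6.67, 4.8004 and 3.67 CPM and Plet1 6.85, 3.46 and 3.54 CPM. Of 13 surface ectoderm genes 2 were expressed, Gbx2 (15.7, 9.41 and 5.06 CPM), also a gene of the posterior epiblast, with the opposite-strand D130058E05Rik over 43.5% of its exon bases, and Gata3 (1.48, 1.34 and 1.899 CPM).

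The expressed shares of the epiblast, endoderm and germ cell lists, 38.1% to 54.5%, lay around the 46.2% of all genes, so nothing is read from these counts. Of the epiblast and neural ectoderm list 12 of 22 were expressed, with the DNA methyltransferase gene Dnmt3b at 135, 105 and 92.1 CPM and the epithelial adhesion gene Epcam at 28.9, 18.2 and 11.8 CPM. Of the visceral endoderm list 8 of 21 were expressed, with Apoe at 248, 454 and 444 CPM, and of the definitive endoderm list 8 of 15, with Hhex, which endothelium shares, at 14.4, 11.8 and 13.3 CPM and Trh at 12.2, 4.61 and 1.77 CPM. Of the node and notochord list 6 of 18 were expressed (33.3%, against 46.2% of all genes), among them T, Gdf1, Lefty2 (4.63, 6.91 and 1.27 CPM) and Dand5 (2.22, 1.44 and 1.77 CPM). Of 13 germ cell genes 6 were expressed, Ifitm1 at 505, 352 and 305 CPM, Ifitm3 at 85.5, 48.1 and 43.7 CPM, Alpl at 17.8, 15.8 and 8.35 CPM and Kit at 9.26, 6.91 and 11.6 CPM among them, genes that other tissues also express. The germ cell genes Dppa3, Nanos3 and Prdm14, named after their values were seen, had 1 to 3 counts each over the 3 libraries.

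The 3 libraries did not spread evenly. Their biological coefficient of variation, the relative spread of a gene's level beyond counting error, was 0.154 over 11153 genes. Without replicate 1 it was 0.0907, without replicate 2 0.187 and without replicate 3 0.167. Among 9289 genes with a mean of at least 5 CPM, 437 (4.7%) had a ratio of more than 2 between the highest and the lowest library. By pairs, 59 genes differed by more than 2-fold between replicates 2 and 3, 224 between 1 and 2 and 353 between 1 and 3. Replicate 1 therefore stood apart from the other pair. It was also the shallowest library, and the mitochondrial genes took 2.79% of its counts, against 1.96% and 2.04%.

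Of the 437 genes, 254 were highest in replicate 1, 46 in replicate 2 and 137 in replicate 3. Over all 9289 genes the shares were 38.8%, 27.5% and 33.7%, and the shares that were lowest in replicates 1, 2 and 3 were 40.6%, 26.8% and 32.6%. Genes more than 2-fold above both others in replicate 1 numbered 116 (1.25%), and genes more than 2-fold below both numbered 47 (0.506%). For replicate 2 the corresponding counts were 4 and 4, and for replicate 3 they were 7 and 21.

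A sequence shared by many of the genes high in replicate 1 was found after their values were seen. A count of every 24-base word, on both strands, in the transcripts of the 102 such genes with a sequence showed that this word was held by the most of them:

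B2 stretch: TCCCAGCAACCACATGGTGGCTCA

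All 24 bases are printed in capitals as in the transcripts. They belong to B2, an abundant short interspersed repeat of the mouse genome. The stretch was in the sense direction in 28 of the 102 genes and in the antisense direction in 15, together 42.2%, and in 263 of 8631 genes of at least 5 CPM with a sequence (3.05%). As the word was chosen on these 102 genes, their share is a description and no test. In none of the 44 genes with a sequence that were more than 2-fold below in replicate 1 was it present. At a share of 3.05% few or no holders would fall in a set of this size, so nothing is read from this. In the 263 holders it lay at a median of 27.1% of the transcript's length from the 3′ end.

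The holders that were high included 10 of the 15 most variable genes of at least 20 CPM. As the word was chosen on genes high in replicate 1, this count too is a description and no test. Dqx1 measured 57.8, 8.64 and 12.7 CPM, Chrna1, a muscle acetylcholine receptor subunit, 75.7, 11.9 and 18.5 CPM, and Cxcr2, a chemokine receptor of neutrophils, 76.8, 12.96 and 22.3 CPM. In each of these replicate 1 was several times above the others, which lay closer together. Mpv17l, Omd, Xaf1, Pbld1, Ppm1k, Tapbpl and H2-T23 were likewise highest in replicate 1, with ratios from 4.304 for H2-T23 to 5.695 for Mpv17l. The other 5 of the 15 were T, without the stretch, Nexn (7.59, 22.2 and 37.97 CPM) and Popdc2 (6.295, 26.02 and 31.4 CPM), both lowest in replicate 1, and Gm13075 and Gm16702, which had no sequence to search.

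Most holders were not high. Their median log2 ratio of replicate 1 to the mean of the others was 0.10, with the 90th percentile at 1.80. For genes without the stretch the median was -0.02 and the 90th percentile 0.43. Between replicates 3 and 2 the 90th percentiles were 0.42 and 0.32. The 263 holders include 43 of the 102 genes on which the word was chosen. The high percentile in replicate 1 is not independent of that choice, so its contrast with the other percentiles is a description and no test. Whether the reads of these genes came from their own transcripts or from repeats elsewhere was not tested.

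**Figure D4:**
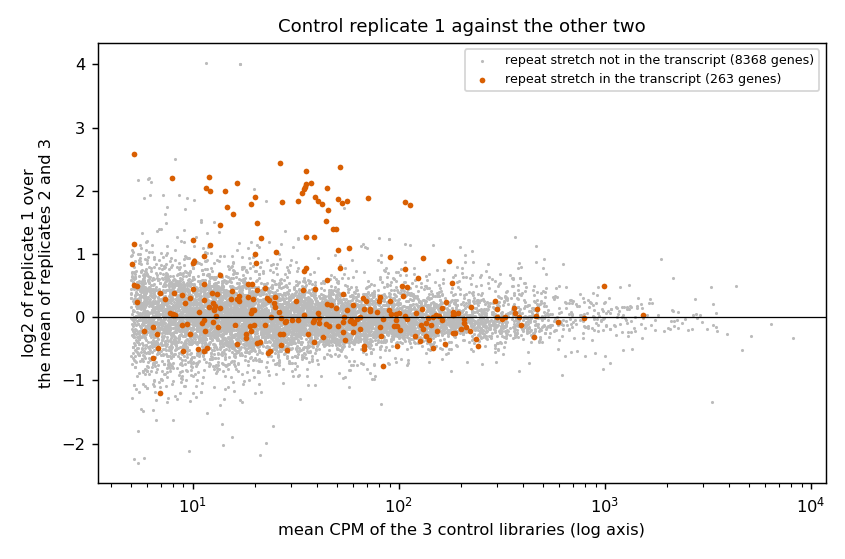
Log2 ratio of control replicate 1 to the mean of replicates 2 and 3 (y axis) against mean CPM (x axis, log scale), 1 point per gene of at least 5 CPM; orange points are the 263 genes whose transcript holds the B2 stretch, grey points 8368 genes without it. A group of orange points lies near a ratio of 2 on the log2 scale, while the other orange points lie around 0 among the grey ones. The stretch was chosen on genes high in replicate 1, so the high group is no test.

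Transcript length moved with replicate 1 as well. Among genes without the stretch, the median log2 ratio of replicate 1 to the others was 0.43 for 170 transcripts of up to 600 bases and 0.19 for 450 of 600 to 1000 bases. It was -0.03 for those of 1000 to 2000 bases, -0.09 for 2000 to 4000 and 0.02 above 4000. Of the 59 genes more than 2-fold above in replicate 1 without the stretch, 17 (28.8%) had transcripts of up to 1000 bases, against 7.41% of all genes without it. The part of transcript length in the ratios below was not tested.

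The lineage lists varied between the libraries in different directions. In the primitive streak list 12 genes reached 5 CPM. Of these, 8 were highest in replicate 1 and 6 had a ratio over 2, against 38.8% and 4.7% of all genes. The medians of their log2 deviations from each gene's own mean were 0.57, -0.13 and -0.33 in replicates 1, 2 and 3. None of the 12 held the B2 stretch and their transcripts ran from 1040 to 2877 bases. T, Cdx1, Evx1, Mixl1 and Pou5f1 were more than 2-fold above both others in replicate 1 (Evx1 and Mixl1 named after their values were seen, at 13.7, 4.896 and 6.46 CPM and 17.03, 7.297 and 6.83 CPM).

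A few paraxial genes were also highest in replicate 1. Tbx6 and Msgn1, a bHLH factor of presomitic mesoderm (19.4, 5.76 and 7.59 CPM, transcript of 613 bases), were more than 2-fold above in replicate 1, and the homeobox gene Meox1 measured 16.8, 12.4 and 7.97 CPM. In the list as a whole 7 of 14 genes of at least 5 CPM were highest in replicate 1, against 38.8% of all genes. In the epiblast list 5 of 6 were, against the same 38.8%, with Nanog, the pluripotency homeobox gene, at 36.7, 8.93 and 12.2 CPM. Pou5f1 is counted in both the epiblast and the primitive streak lists. The transcript of Nanog holds the B2 stretch in the antisense direction, whereas those of Pou5f1 and Epcam do not hold it.

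Cardiac genes showed the reverse. Of 19 cardiac genes of at least 5 CPM, 16 were highest in replicate 3 and 16 were lowest in replicate 1, against 33.7% and 40.6% of all genes. Popdc2, a membrane protein of heart muscle, measured 6.295, 26.02 and 31.4 CPM, Tnnt2, cardiac troponin T, 9.63, 25.7 and 37.97 CPM and Myl4, an embryonic atrial myosin light chain, 3.33, 7.78 and 12.9 CPM. Mef2c, a cardiac MADS-box factor, measured 7.22, 14.02 and 21.4 CPM. All 4 were lowest in replicate 1 and highest in replicate 3, and the ratios ran from 2.96 to 4.99. The medians of the log2 deviations of the list were -0.31, 0.05 and 0.23.

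Extraembryonic mesoderm genes followed the same order, with 17 of 21 highest in replicate 3 and 17 lowest in replicate 1, again against 33.7% and 40.6%. The tryptophan dioxygenase gene Tdo2 measured 39.8, 97.3 and 108 CPM, the smooth muscle actin gene Acta2 116, 137 and 281 CPM and the homeobox gene Pitx1 10.4, 12.4 and 22.3 CPM. Acta2 and Pitx1 were close in replicates 1 and 2 and high in replicate 3, whereas Tdo2 was low in replicate 1. In the lateral plate list 8 of 12 genes were highest in replicate 3, against 33.7% of all genes. None of the 12 had a ratio over 2, against 4.7%. The 8 include Hand1, Hand2 and Gata4, which the cardiac list also holds, and Bmp4, which the extraembryonic list also holds. The counts of these lists are thus not independent. Of 16 endothelial genes 10 (against 40.6% of all genes) were lowest in replicate 1, among them Esam, an adhesion molecule (4.26, 10.9 and 9.24 CPM), and Cd34 (6.295, 12.9 and 12.3 CPM). Unlike in the lists above, more of the 16 were highest in replicate 2 (9, against 27.5% of all genes) than in replicate 3 (5, against 33.7%).

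**Figure D5:**
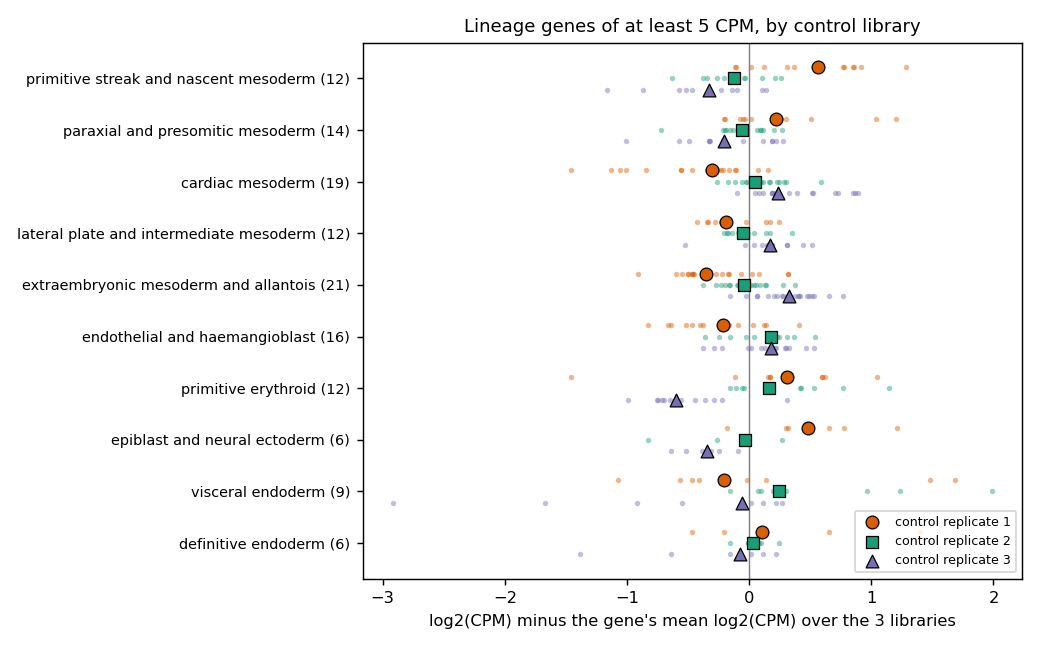
Log2 CPM of each lineage gene of at least 5 CPM minus its mean over the 3 libraries (x axis), for lists with 5 or more such genes (number in brackets); small points are genes and large outlined symbols the list medians in control replicates 1 (circle), 2 (square) and 3 (triangle). The primitive streak median lies at 0.57 in replicate 1, the cardiac and extraembryonic medians lie lowest in replicate 1, and the erythroid median is lowest in replicate 3 at -0.60.

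Erythroid genes were set apart by replicate 3. Of 12 genes of at least 5 CPM 11 were lowest there, against 32.6% of all genes, and 9 had a ratio over 2, against 4.7%. Their summed level was 491, 549 and 266 CPM. Hbb-bh1 measured less in replicate 3 than in either other library, as did the factors Gata1, Klf1 (15.4, 10.9 and 5.95 CPM) and Nfe2 (12.96, 6.05 and 3.16 CPM). The 3 factors were highest in replicate 1, while all 5 globin genes of at least 5 CPM were highest in replicate 2, against 27.5% of all genes. The adult-type globin Hbb-b1 measured 1.48, 9.02 and 5.06 CPM and was lowest in replicate 1.

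A few endoderm and node genes differed more between the libraries than most. The apolipoprotein gene Apoa1 measured 1.48, 12.4 and 1.65 CPM, and Ttr and Rbp4, transport proteins of visceral endoderm named after their values were seen, measured 0, 3.26 and 0.633 CPM and 4.999, 12.96 and 4.56 CPM. These 3 were highest in replicate 2. Cldn6, an epithelial claudin, measured 15.4, 11.2 and 0.633 CPM, the protease inhibitor Spink1 16.8, 6.91 and 1.899 CPM and Trh 12.2, 4.61 and 1.77 CPM, and all 3 were lowest in replicate 3. The node genes Noto (2.04, 0 and 0 CPM) and Dynlrb2 (2.04, 0 and 0.127 CPM), named after their values were seen, had at most 1 count outside replicate 1. The summed level of the 18 node and notochord genes, T included, was 92.6, 62.6 and 44.8 CPM. Most of the fall from replicate 1 to replicate 3 was that of T, whose levels are given above.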

How the data were processed

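The authors deposited raw read counts per Entrez gene, 1 column per library, for all 6 libraries, with 0 columns left without a sample. The control group was read from the labels. Per the submitters' processing notes the tools were FastQC, TopHat2 2.0.14, Subread 1.4.6, featureCounts and edgeR with build mm9. Neither the annotation nor the strand setting nor the handling of multi-mapping reads is given in these sources. The labels' protocols name a SMARTer kit for cDNA and Nextera XT for libraries.

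The deposited counts were scaled in R 4.3.3 with edgeR 4.0.16 (filterByExpr, minimum count 10, 11913 genes; TMM over all 6 libraries). No Gli3R level was compared, and no difference was tested. Of the Entrez IDs 96.7% matched the RefSeq gene table, and 27 symbols turned into dates were restored. Lengths were of the longest RefSeq-tagged GENCODE transcript and sequences of the longest transcript, on another build, so no coordinates are given; 92.5% of expressed genes had a length. A library under 3 counts was set to 3 counts in ratios, and these limits cover counting error only. Near copies were searched with blastn 2.17.0 and exon overlaps of at least 20% were listed. As a check for duplicated libraries, chi-square per gene between library pairs ran from 4.63 to 13.9.

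Members and gene lists were chosen with earlier results of these data known. Named are the 7 markers, the highest 12 nuclear genes, 15 transcription factors, 12 ligands and 12 receptors per kilobase, up to 4 leading genes and the genes without counts of each lineage list, expressed Hox genes, the 15 most variable genes of at least 20 CPM, up to 3 variable members per list of at least 5 CPM and the 5 most even factors, ligands or receptors. One item that this rule would name is not reported here. Other genes are marked as chosen after their values were seen. Alternatives were other scalings, floors of 0.5 and 5 CPM, a mean of 20 CPM, median transcript lengths and leaving out each library.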

Additional observations from a re-analysis of the deposited data

How the results depend on the processing

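The number of expressed genes was 11529 under each of the 4 other scalings, because 1 CPM needs the same whole number of counts in each library, 12554 at a floor of 0.5 CPM and 8765 at 5 CPM. At 5 CPM, 234 transcription factors, 39 ligands and 53 receptors were expressed. The count of genes with a ratio over 2 was 431 to 439 under the other scalings and 125 at a mean of at least 20 CPM. At 20 CPM, 89, 6 and 30 genes were highest and 30, 49 and 46 lowest in replicates 1, 2 and 3. Leaving out 1 library gave 55 to 356 such genes, 55 without replicate 1 and 230 without replicate 3, and a coefficient of variation of 0.0907 to 0.187, lowest without replicate 1. A ratio over 2 libraries has fewer chances to exceed 2. Without the genes that hold the B2 stretch, an alternative chosen after seeing the data, 382 genes remained, 201 of them highest in replicate 1. The rankings shared 14 or 15 of 15 transcription factors, all 12 ligands and 11 or 12 of 12 receptors with the alternatives run. Mean levels of the 234 named genes moved by less than 1 SD in all 936 values under the other scalings. Without replicate 1 the means of 22 of them moved by more than 1.5 times, and without replicates 2 and 3 those of 2 each. That of T was 22.6 CPM over the 3 libraries and 12.1 without replicate 1, that of Tbx6 7.495 and 4.21, and that of Apoa1 5.17 and 1.56 without replicate 2. Counts of list members with a ratio over 2 moved by more than 1.5 times in 18 of 115 and 27 of 69 alternatives, most lists having few such members. At these depths genes near 1 CPM rest on few reads. No paired analysis was possible because only the control group was described.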

Other observations

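Imprinted genes, which are known for control of growth in the embryo and placenta, were expressed from 20 of 21 members (95.2%, against 46.2% of all genes). Of the 19 with a mean of at least 5 CPM, 12 were highest in replicate 3, against 33.7% of all genes. None had a ratio over 2, against 4.7%. Mest measured 648, 1003 and 1288 CPM and Dlk1, a Notch-like membrane protein, 78.9, 67.8 and 129.9 CPM. H19, the non-coding neighbour of Igf2, measured 131, 169 and 219.6 CPM and was chosen after its values were seen.

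Of the genes of mesenchyme, adhesion and matrix 33 of 36 were expressed (91.7%, against 46.2% of all genes). Of 27 with a mean of at least 5 CPM 20 were lowest in replicate 1, against 40.6% of all genes. Snai2, a zinc finger factor of mesenchymal cells, measured 20.7, 40.4 and 46.8 CPM. The integrin genes Itga5 and Itga4 measured 3.33, 5.18 and 7.59 CPM and 4.07, 4.896 and 9.11 CPM, highest in replicate 3. The fibronectin gene Fn1, chosen after its values were seen, measured 272, 227 and 222 CPM and was highest in replicate 1.

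Immediate early genes are known to respond to dissociation of tissue. Of 13 with a mean of at least 5 CPM 8 were lowest in replicate 1, against 40.6% of all genes. A ratio over 2, held by 4.7% of all genes, was seen in 3 of the 13. These were Atf3 (2.96, 7.49 and 8.86 CPM), Egr1 (4.26, 6.05 and 11.01 CPM) and Fos (8.702, 20.8 and 18.1 CPM). Of 15 heat shock and chaperone genes 12 were lowest in replicate 1, against the same 40.6%. Of the 15, 1 had a ratio over 2, against the same 4.7%. It was Hspa1a (4.07, 7.39 and 9.11 CPM), which shares 74.0% of its transcript with Hspa1b. Dnajb1 measured 74.6, 115 and 137 CPM.

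Cell cycle genes were the most even of the groups of cell state by the median ratio of the highest to the lowest library. It was 1.14 over 26 genes against 1.24 over all 9289 genes. None of the 26 had a ratio over 2, against 4.7% of all genes. The median was 1.20 over 17 glycolysis genes, none over 2, and the glucose transporter gene Slc2a1 measured 472, 633 and 818 CPM. The X-linked transcript Xist (43.9, 40.9 and 43.03 CPM) and the Y-linked gene Eif2s3y (32.2, 30.3 and 29.4 CPM), chosen after their values were seen, were alike in the 3 pools. Not every member of their list was even. Of the 6 X-linked and Y-linked sex genes with a mean of at least 5 CPM, 1 had a ratio over 2, against 4.7% of all genes. It was highest in replicate 1 and lowest in replicate 3.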
